A study of Mus musculus with 39 samples.

Results

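Cell cycle and proliferation genes were followed in whole mouse lung as a set of 44 genes, chosen by symbol and split by their known roles into 17 genes of S phase, 26 genes of G2 and mitosis and the G1 kinase Cdk6. Of the 44 genes, 43 had at least 1 probe under their symbol (48 probes in all), among 16879 genes named on the array; the mitotic cyclin Ccnb1 had none under its symbol and is not analysed here. Lung signal was high enough to test 42 of them, 17 of S phase, Cdk6 and 24 of mitosis. Anln, which shapes the cleavage furrow, was left out because neither of its probes exceeded the lung signal threshold in at least 4 arrays of any group (6 and 20 of 39 arrays in all).

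The lungs came from male C57BL/6 × CBA F1 mice, 8 to 10 weeks old by the labels, and each of the 39 arrays held 1 lung, in 8 groups of 5 mice except 12 week smoke with 4. Mice in the 6 week smoke and 12 week smoke groups inhaled mainstream tobacco smoke (MTS) through the nose only, from 2 cigarettes daily on 5 days a week including a lead-up period of 2 weeks, and were killed 3 h after the last cigarette. The 6 week sham and 12 week sham mice were placed in restrainers without smoke. The groups labelled 6 week smoke and 6 week break, and 12 week smoke-6 week break, had the same exposures followed by 6 weeks without smoke, and their shams are labelled 6 week smoke-break sham and 12 week smoke-break sham (break sham below). The right lung had been lavaged and the upper part of the frozen left lobe gave the RNA, so each value is an average over all cells of that piece, in which fewer dividing cells and less RNA per cell cannot be told apart. Lung RNA (Cy5) was hybridized against 1 universal mouse reference RNA (Cy3), a commercial pool from cell lines, and values are log2 ratios of lung to reference.

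Arrays differed in brightness, with a median Cy5 signal of 268 to 1532 or 2.24 to 8.99 times its background. The share of probes over the lung signal threshold (set on each array by its negative control spots) was 48.4% to 94.6%. Replicate 2 of 6 week sham stood apart: its ratio for Cyp1a1, the smoke-inducible cytochrome P450, was 6.46, within the 5.07 to 8.06 of the 9 smoke arrays and above the 0.45 to 2.81 of the 29 other arrays. Results are given with and without that array wherever a call changed. The 7 lung identity genes that were checked, among them surfactant proteins and Scgb1a1, averaged 4.34 in 6 week smoke and 3.99 in 6 week sham lungs on the log2 ratio scale, and 6 of them exceeded the threshold on all arrays.

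The cell cycle is run by waves of transcription. In G1, cyclin D with Cdk4 or Cdk6 phosphorylates the retinoblastoma protein and releases E2F factors, which switch on genes that license origins, supply nucleotides and run the replication fork. In late S phase and G2 a second wave, driven by the MuvB complex with B-Myb (Mybl2) and Foxm1, switches on the genes of spindle, kinetochore and cytokinesis, many of them through a CHR element and CCAAT boxes that NF-Y binds. In the adult lung few cells divide at rest.

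The promoters of the members, which their choice had not used, can be set beside these waves. RefSeq promoters (GRCm38.p6, 300 bases, from 250 before to 50 after the start) were at hand for 38 of the 44 members, and a gene with several promoters was counted if any of them held the letters. Searched on both strands, with overlapping matches allowed, the CHR letters TTTGAA were found for 17 of 22 mitotic members (77.3%) and for 2 of 15 S phase members (13.3%), Cdc45 and Mcm2, against 20.2% of all 27025 genes in the table. CCAAT was found for 19 of 22 mitotic members (86.4%) and 9 of 15 S phase members (60%), against 41.1% of all genes. The E2F letters TTTCCCGC, TTTCGCGC, TTTGCCGC or TTTGGCGC were found for 1 of 22 mitotic members (4.55%), Cdk1, and for 5 of 15 S phase members (33.3%), Cdc6, Mcm3, Mcm5, Mcm6 and Mcm7, against 2.6% of all genes. These shares describe letters in a window, not sites in use. Promoters of 4 genes that the results below return to are shown 5′ to 3′ on the gene's strand, with all 3 motifs in capitals: Mki67 and Cdk1 as mitotic members with 2 CHR matches each, Mcm6 as an S phase member with 3 E2F matches, the first and second overlapping on opposite strands, and Cdk6, the member whose ratio fell in 12 week smoke, with none of the 3.
Mki67 (chr7:135716330-135716629, minus strand): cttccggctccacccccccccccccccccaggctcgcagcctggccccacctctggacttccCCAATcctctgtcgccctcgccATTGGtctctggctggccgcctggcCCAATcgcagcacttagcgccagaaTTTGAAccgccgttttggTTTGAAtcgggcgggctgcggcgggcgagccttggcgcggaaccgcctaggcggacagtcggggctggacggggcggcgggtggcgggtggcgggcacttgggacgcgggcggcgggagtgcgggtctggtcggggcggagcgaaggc
Cdk1 (chr10:69352863-69353162, minus strand): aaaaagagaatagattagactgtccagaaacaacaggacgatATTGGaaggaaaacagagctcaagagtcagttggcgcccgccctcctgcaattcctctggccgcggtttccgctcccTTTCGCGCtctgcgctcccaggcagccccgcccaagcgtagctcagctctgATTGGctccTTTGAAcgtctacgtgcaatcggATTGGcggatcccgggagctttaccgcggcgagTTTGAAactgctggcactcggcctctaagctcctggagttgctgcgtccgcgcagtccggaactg
Mcm6 (chr1:128359656-128359955, minus strand): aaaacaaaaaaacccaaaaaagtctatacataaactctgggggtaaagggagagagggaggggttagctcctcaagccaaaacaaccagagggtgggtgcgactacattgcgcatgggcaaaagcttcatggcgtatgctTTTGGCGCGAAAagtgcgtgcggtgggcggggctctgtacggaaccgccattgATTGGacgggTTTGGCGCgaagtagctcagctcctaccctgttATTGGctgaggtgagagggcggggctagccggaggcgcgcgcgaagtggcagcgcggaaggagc
Cdk6 (chr5:3343643-3343942, plus strand): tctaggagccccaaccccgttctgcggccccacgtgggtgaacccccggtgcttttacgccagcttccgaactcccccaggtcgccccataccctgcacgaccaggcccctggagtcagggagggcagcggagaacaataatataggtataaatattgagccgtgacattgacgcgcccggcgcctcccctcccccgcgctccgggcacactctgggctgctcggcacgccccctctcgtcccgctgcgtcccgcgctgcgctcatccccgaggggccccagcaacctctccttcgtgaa

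All 42 members tested were lower in lung than in the reference on average. The median of their mean log2 ratios was −2.62, which is 6.15-fold below the reference, while the median of all 17560 probes tested was 0.04. Mitotic members lay lower than S phase members, with medians of −3.03 and −2.24. Among the lowest were Racgap1 (−4.27) and Birc5 (−4.24), which act in cytokinesis and at the inner centromere, and Aurkb (−4.17), their partner kinase, in no settled order, since the reference was at the scanner limit on 1 array for Racgap1 and 4 for Birc5 and Aurkb exceeded the lung signal threshold on 14 arrays. Kif20a, a kinesin of the central spindle, was at −3.92, and Mki67, the usual marker of dividing cells, at −3.83. Among S phase members the lowest were Rrm2 (−3.36) and Tyms (−3.20), which make deoxynucleotides, though 2 other Tyms probes averaged −2.61 and −0.08. The highest were Gmnn (−1.37), which blocks a second licensing of origins, and Pcna (−1.49), the sliding clamp of DNA polymerase, which also serves in repair. Cdk6 stood apart at −0.07, close to its level in the reference.

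**Figure D1:**
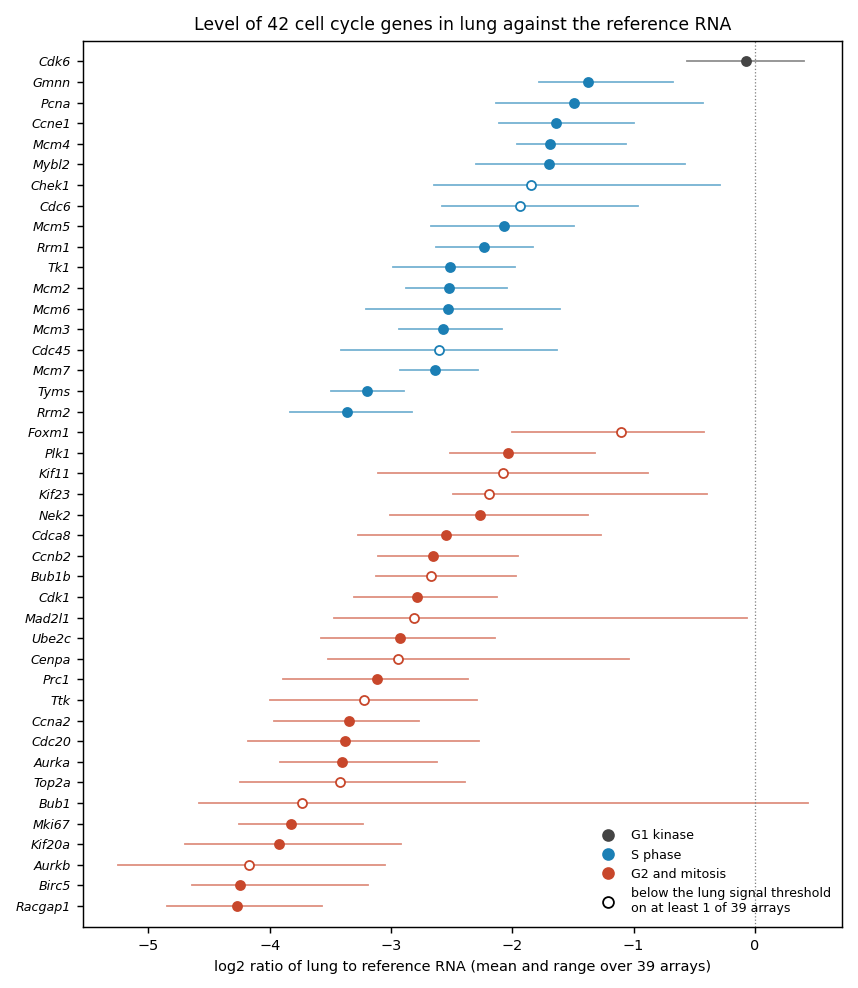
Mean log2 ratio of lung to reference (x axis) of the 42 cell cycle genes tested (y axis), with bars for the range over 39 arrays and open circles for genes below the lung signal threshold on at least 1 array. All means are below 0, with mitotic genes between −4.27 and −1.10 and S phase genes between −3.36 and −1.37.

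Lung signal differed widely between the members. The representative probe exceeded the threshold on all 39 arrays for 29 of 42 members, 14 of S phase, Cdk6 and 14 of mitosis. The dimmest were Aurkb, above the threshold on 14 arrays, Chek1 on 18, Bub1 on 20, Cdc6 on 21, Cdc45 on 24, Kif11 on 26 and Ttk on 29. Aurkb exceeded it in 4 of 5 arrays of 6 week smoke and in 0 of 6 week sham. Break sham of the 6 week arm also had 4 of 5 arrays above it, 12 week smoke 0 of 4 and 12 week sham 0 of 5. Chek1 met the filter of 4 arrays in 6 week smoke alone. The reference was at the scanner limit of 65535 on 1 to 6 arrays for 10 members, most often Mcm6 (6 arrays), Pcna (5) and Birc5 (4), and the ratio is only an upper bound there. Within groups the members varied somewhat more than other probes, with a median SD of 0.31 against 0.27 over all probes tested.

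Correlations between members over arrays were low at the median and mostly positive, with group and run means removed. For 14 S phase genes above the threshold on all arrays the median r was 0.19 (67 of 91 pairs positive). For 14 mitotic genes it was 0.21 (76 of 91 pairs positive), and between S phase and mitotic genes 0.20 (163 of 196 pairs positive). Variation shared by a whole run is not in these values. These points share arrays, reference and normalization, and the values are a description only.

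The first comparison asks what MTS did to these genes after 6 weeks. None of the 42 members passed the test (limma, Benjamini-Hochberg adjusted p under 0.05), against 0.0626% of all 17560 probes. At an unadjusted p under 0.05 there were 8 of 42 members, all lower in smoke, against 8.41% of all probes in either direction: Kif20a, Tyms, Mki67, Cdk6, Rrm1, Racgap1, Cdca8 and Prc1. By sign, 34 of 42 members were lower in 6 week smoke, 13 of 17 S phase members with a median log2 difference of −0.12 and 20 of 24 mitotic members with a median of −0.22. Over all probes the median was 0.01 and 47.2% were below 0. Tyms, thymidylate synthase, was the 1 member of 42 measured without overlap of the groups, against 0.849% of all probes. Without replicate 2 of 6 week sham none passed either, against 0.188% of all probes, and the median over the 42 was −0.20.

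A shift of like size was measured in other probes with as low a ratio of lung to reference. These lie outside all cell cycle lists used here, but were not screened further for genes of dividing cells. Of the 251 other probes with a mean log2 ratio below −2, 71.3% were lower in 6 week smoke, with a median log2 difference of −0.12. Of the 53 other probes below −3, where the median mitotic member lies, 47 were lower, with a median of −0.22. The part of the position on the ratio scale in the members' shift was not tested. With median centring in place of loess the S phase median came to −0.01 and the mitotic median to −0.11.

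On single arrays the mean over the 24 mitotic members, each centred on its own average, was −0.13, −0.25, −0.23, −0.26 and −0.08 in 6 week smoke, against 0.14, −0.22, 0.11, −0.00 and −0.12 in 6 week sham. The lowest smoke value, −0.26, was that of replicate 4, the array with 48.4% of probes over the threshold where the other 38 had 62.7% or more. Without it the mitotic median of the log2 differences stayed at −0.22. The 5 smoke arrays were all below 0, and the groups overlapped through replicates 2 and 5 of 6 week sham. The arrays fall into 5 runs of 7 or 8 by the sequence of their labels, each with arrays of most groups, and the mitotic mean was 0.15 in the first run and −0.17 in the fifth. Median Cy5 signal of the arrays was 852 to 1532 in the first run and 268 to 418 in the fifth. Smoke was lower in all 4 runs that held both 6 week groups, with differences of −0.27 to −0.09. The mean over the S phase members was lower in the same 4 runs, with differences of −0.21 to −0.0012.

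**Figure D2:**
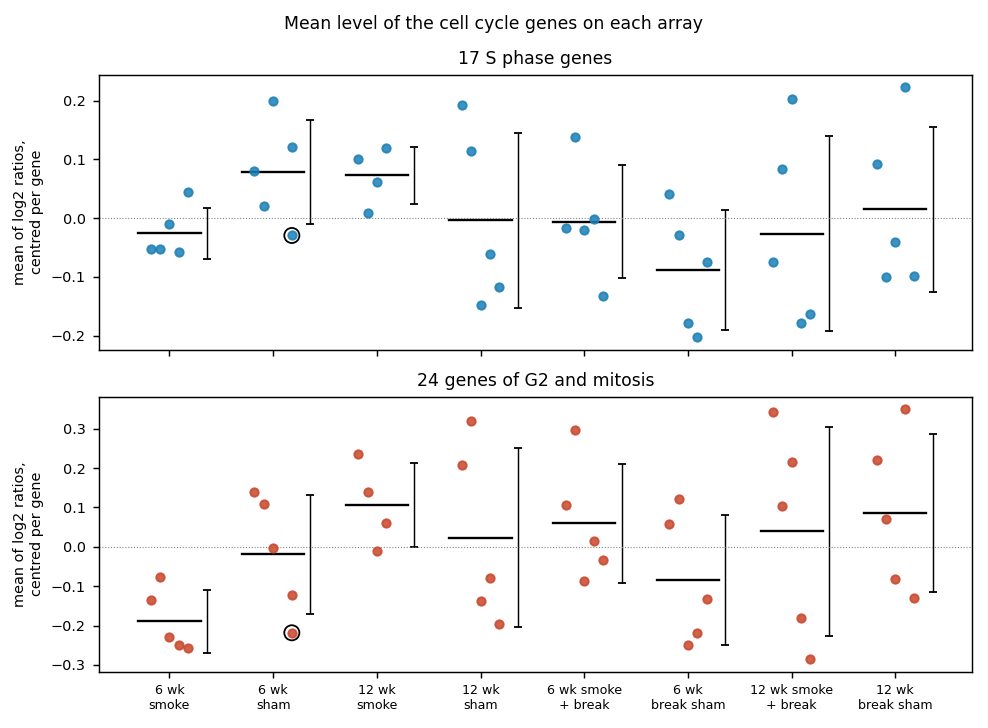
Mean of the centred log2 ratios (y axis) of 17 S phase genes (top) and 24 mitotic genes (bottom) on each of 39 arrays, by group (x axis), with the group mean as a line, the SD as a bar, points shifted sideways by label run and a ring around replicate 2 of 6 week sham. Mitotic means of 6 week smoke lie between −0.26 and −0.08 and overlap with those of 6 week sham, −0.22 to 0.14.

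Kif20a carried the largest difference of any member at 6 weeks. Its log2 ratios were −4.26, −4.45, −4.21, −4.70 and −4.21 in 6 week smoke, against −3.46, −3.81, −3.14, −3.75 and −4.39 in 6 week sham. Of the sham arrays, 4 lay above all smoke arrays and replicate 5 lay among them, with means of −4.37 ± 0.21 in smoke and −3.71 ± 0.46 in sham (SD, n = 5 each). The log2 difference was −0.69 (SE 0.14, 95% interval −0.98 to −0.40), and limma's adjusted p of 0.0558 missed the threshold. It was lower in 4 of 4 runs, with differences of −1.07 to −0.46. Over the processing alternatives the difference ranged from −0.72 to −0.55 and its adjusted p from 0.0264 to 0.94, and without replicate 2 of 6 week sham it was −0.63 with an adjusted p of 0.0674.

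At 12 weeks the values of Kif20a lay the other way. They were −3.35, −3.87, −2.92 and −3.48 in 12 week smoke, against −3.99, −4.08, −3.41, −4.33 and −4.11 in 12 week sham. Replicate 3 of sham lay above replicates 2 and 4 of smoke and the other sham arrays lay below all smoke arrays, with means of −3.41 ± 0.39 (SD, n = 4) in smoke and −3.99 ± 0.35 (SD, n = 5) in sham. The log2 difference was 0.49 (SE 0.15, 95% interval 0.18 to 0.80) with an adjusted p of 0.19 in limma, and smoke was higher in 4 of 4 runs, by 0.21 to 0.64. The difference between the durations, 12 minus 6 weeks, was 1.18 (95% interval 0.76 to 1.60) with an adjusted p of 0.0527, the lowest of the members, where 0% of all probes passed. Without replicate 2 of 6 week sham it was 1.11 with an adjusted p of 0.197, again with 0% of all probes past the threshold. Racgap1 and Prc1, which act beside it at the central spindle, gave log2 differences of −0.31 and −0.25 after 6 weeks, and of −0.24 and 0.15 after 12 weeks, none past the test.

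Mki67 and the other usual markers of dividing cells were measured on both sides of 0. Mki67 was −3.94, −3.92, −4.16, −4.26 and −3.78 in 6 week smoke, against −3.47, −3.90, −3.67, −3.71 and −4.01 in 6 week sham. The ranges overlapped, and the log2 difference was −0.29 (SE 0.09) with an adjusted p of 0.34 in limma. At 12 weeks the difference, which is fitted with the label run as a block, was −0.01 (95% interval −0.22 to 0.19), while the plain Mki67 means lay the other way, −3.75 in smoke and −3.79 in sham.

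Cdk1, the kinase that starts mitosis, was −3.02, −2.66, −2.93, −3.30 and −2.70 in 6 week smoke, against −2.41, −3.07, −2.73, −2.39 and −3.21 in 6 week sham. At 12 weeks it was −2.62, −2.13, −2.84 and −2.88 in smoke, against −2.59, −2.82, −2.68, −2.85 and −2.81 in sham. The groups overlapped at both times, with log2 differences of −0.23 (95% interval −0.55 to 0.08) and 0.08 (−0.25 to 0.41). Top2a, the topoisomerase that untangles sister chromatids, was −4.25, −3.86, −3.52, −2.39 and −3.39 in 6 week smoke, against −3.84, −3.26, −3.13, −3.35 and −3.53 in 6 week sham, and the smoke arrays held both the highest and the lowest value. At 12 weeks it was −3.19, −3.81, −3.10 and −3.18 in smoke, against −3.57, −3.48, −3.56, −3.55 and −3.10 in sham, where replicate 2 of smoke and replicate 5 of sham each lay apart from their group. The log2 differences of Top2a were 0.04 (95% interval −0.45 to 0.52) and 0.21 (−0.30 to 0.72). The first has no settled sign, since the plain Top2a means at 6 weeks were −3.48 in smoke and −3.43 in sham and smoke was lower in 3 of 4 runs.

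Among the replication genes Pcna was −0.69, −1.52, −1.52, −1.56 and −1.33 in 6 week smoke, against −0.88, −1.57, −1.36, −1.77 and −1.58 in 6 week sham. At 12 weeks Pcna was −1.12, −1.37, −1.25 and −1.45 in smoke, against −1.43, −1.72, −1.42, −1.80 and −1.51 in sham, with overlap through replicate 4 of smoke. The log2 differences of Pcna were 0.07 (95% interval −0.26 to 0.40) and 0.21 (−0.14 to 0.56). Smoke was higher in 4 of 4 runs at both times, by 0.02 to 0.25 and by 0.06 to 0.35. The reference of Pcna was at the scanner limit on 5 arrays, among them replicate 1 of 6 week smoke. Its ratio is only an upper bound there. Mcm2, a subunit of the replicative helicase, was −2.83, −2.65, −2.70, −2.04 and −2.72 in 6 week smoke, against −2.54, −2.82, −2.60, −2.11 and −2.25 in 6 week sham. At 12 weeks Mcm2 was −2.42, −2.77, −2.87 and −2.60 in smoke, against −2.23, −2.70, −2.69, −2.53 and −2.52 in sham. The Mcm2 groups overlapped at both times, with log2 differences of −0.10 (95% interval −0.38 to 0.18) and −0.11 (−0.41 to 0.19). Of Mki67, Cdk1, Top2a, Pcna and Mcm2 none passed the test in any comparison.

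The members at the edge of each wave at 6 weeks were dim or did not pass. Chek1, the S phase checkpoint kinase, had the largest negative log2 difference among S phase members, −0.48 (SE 0.32), from a probe above the threshold in 4 of 5 smoke and 1 of 5 sham arrays. It was −1.36, −2.65, −2.16, −2.35 and −2.14 in 6 week smoke, against −1.18, −1.93, −1.83, −2.46 and −0.80 in 6 week sham, with wide overlap. Aurkb had the largest positive one among mitotic members, 0.17 (SE 0.27), with −4.37, −4.86, −4.30, −3.05 and −4.57 in 6 week smoke, against −4.95, −4.51, −3.75, −4.21 and −4.48 in 6 week sham. Its sign rested on replicate 4 of 6 week smoke, without which the difference was −0.17. Tyms was −3.33, −3.21, −3.25, −3.50 and −3.41 in 6 week smoke, against −3.21, −3.10, −3.08, −3.03 and −3.11 in 6 week sham, a log2 difference of −0.26 with an adjusted p of 0.34. The closest arrays of the groups were both at −3.21 after rounding. Its 2 other probes gave 0.01 and −0.01, so the difference was seen by 1 of 3 probes.

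**Figure D3:**
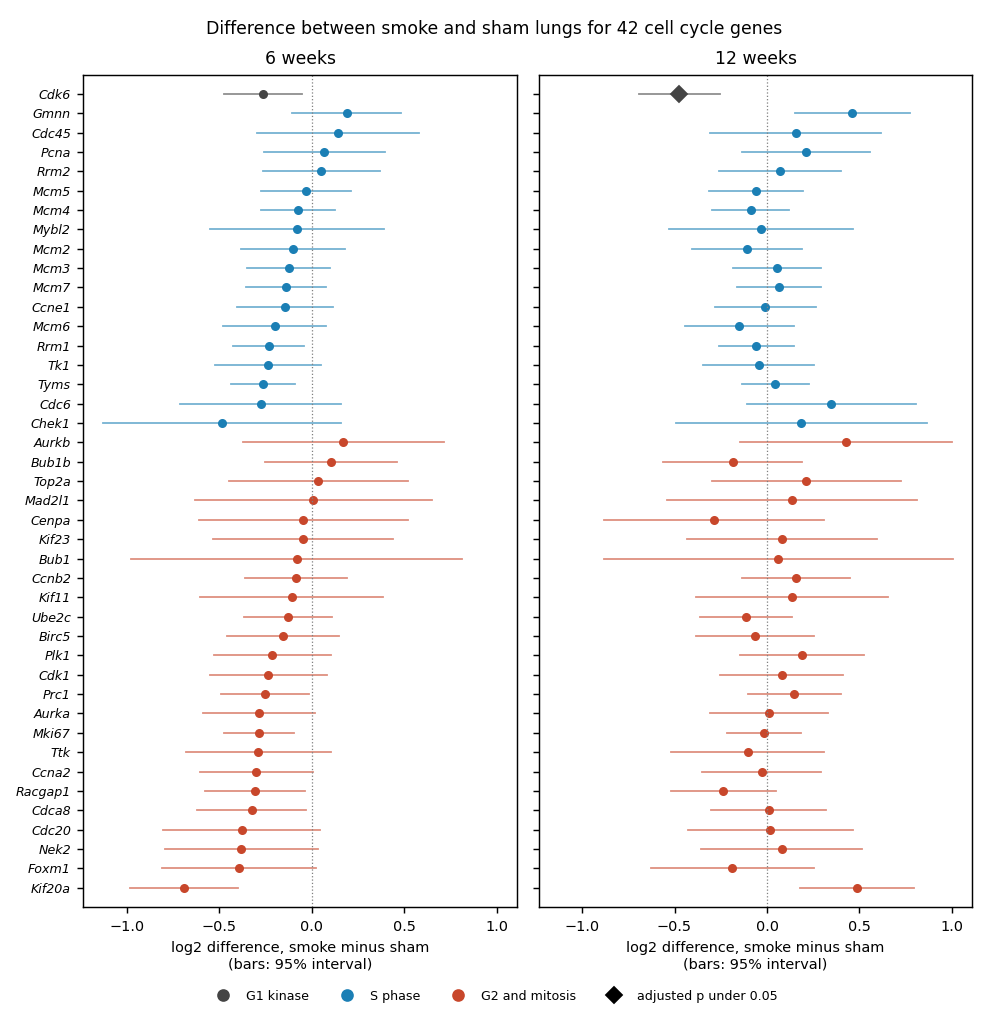
Log2 difference between smoke and sham lungs (x axis, points with 95% intervals) of 42 cell cycle genes (y axis) at 6 weeks (left) and 12 weeks (right), with a diamond where the adjusted p is under 0.05. At 6 weeks 34 of 42 genes are below 0 and none passed, and at 12 weeks 18 of 42 are below 0 and Cdk6 alone passed.

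After 12 weeks of MTS, Cdk6 was the member that passed the test (1 of 42, against 0.433% of all probes). Its log2 ratios were −0.42, −0.43, −0.56 and −0.36 in 12 week smoke, against 0.11, −0.20, −0.17, 0.19 and 0.41 in 12 week sham. All 4 smoke arrays lay below all 5 sham arrays, with means of −0.44 ± 0.08 (SD, n = 4) in smoke and 0.07 ± 0.26 (SD, n = 5) in sham. It was the only member without overlap, where 3.37% of all probes had none. Cdk6 fell by 0.47 on the log2 scale (SE 0.11, 95% interval −0.69 to −0.25, limma adjusted p 0.0329), and smoke was lower in 4 of 4 runs, with differences of −0.76 to −0.22. Leaving out any of the 4 smoke arrays or replicate 1, 4 or 5 of sham took the adjusted p past 0.05, up to 0.139, while over all arrays left out in turn the difference stayed between −0.54 and −0.39. A dim second probe of Cdk6, above the threshold on 33 arrays, gave −0.23 (SE 0.25, adjusted p 0.877), and with the mean of both probes Cdk6 no longer passed (−0.35, adjusted p 0.445).

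At 6 weeks Cdk6 pointed the same way without passing. It was −0.06, −0.24, −0.25, −0.05 and −0.42 in 6 week smoke, against 0.00, −0.07, −0.07, 0.34 and 0.26 in 6 week sham. The groups overlapped, with a log2 difference of −0.26 (SE 0.10) and an adjusted p of 0.446, and the dim probe of Cdk6 gave 0.05. Averaged over both durations Cdk6 fell by 0.37 (SE 0.08, adjusted p 0.0082), the only call among 42 members where 1.22% of all probes passed. With the mean of both Cdk6 probes this came to −0.23 (adjusted p 0.363), and with only the groups of the contrast in the fit to −0.37 (adjusted p 0.0787), neither past the test. Without replicate 2 of 6 week sham it passed at 12 weeks (adjusted p 0.0232) and over both durations (−0.40), with 0.518% and 1.62% of all probes past the threshold. In the same comparison at 12 weeks 2 of 6 fibroblast markers passed, Col3a1 at −0.80 and Pdgfrb at −0.61, and the mean level of the 6 was −0.51 to −0.17 in smoke and −0.31 to 0.24 in sham lungs. Whether these have a part in the Cdk6 value was not tested.

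Gmnn was the S phase member with the largest positive difference at both durations. It was −1.32, −1.21, −0.99, −1.36 and −1.06 in 6 week smoke, against −1.78, −0.68, −1.52, −1.29 and −1.43 in 6 week sham. The highest value of all 39 arrays, −0.68, was that of replicate 2 of 6 week sham. At 12 weeks it was −1.32, −0.92, −1.08 and −0.83 in smoke, against −1.31, −1.54, −1.38, −1.47 and −1.59 in sham, with overlap through replicate 1 of each. The log2 differences were 0.19 at 6 weeks and 0.46 at 12 weeks (adjusted p 0.233), and 0.33 (SE 0.11) over both with an adjusted p of 0.135 in limma. Without replicate 2 of 6 week sham the last was 0.39 and passed the test (adjusted p 0.0264).

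No other member passed at 12 weeks. Over the 42, 24 members were higher and 18 lower in 12 week smoke, with a median of 0.05 for S phase and 0.04 for mitotic members, beside 0.01 over all probes. At an unadjusted p under 0.05 there were 3 of 42 members, Cdk6, Kif20a and Gmnn, against 9.37% of all probes. The largest negative difference among S phase members was that of Mcm6, −0.15, with −2.65, −2.38, −2.57 and −2.71 in 12 week smoke, against −2.23, −2.79, −2.21, −2.81 and −2.49 in 12 week sham. With spots marked by the scanner software left out it was 0.05. Among mitotic members it was that of Cenpa, the centromeric histone, −0.29, with −3.13, −3.25, −2.99 and −3.12 in 12 week smoke, against −2.77, −2.21, −2.65, −3.09 and −3.36 in 12 week sham. Both pairs of groups overlapped and neither passed the test. Between durations, 36 of 42 members had a higher smoke effect at 12 than at 6 weeks, with a median of 0.14 for S phase and 0.24 for mitotic members. Under median centring the S phase median was −0.06, and over the processing alternatives the mitotic median ranged from 0.05 to 0.27. The 53 other probes below −3 had a median of 0.22 in that contrast.

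**Figure D4:**
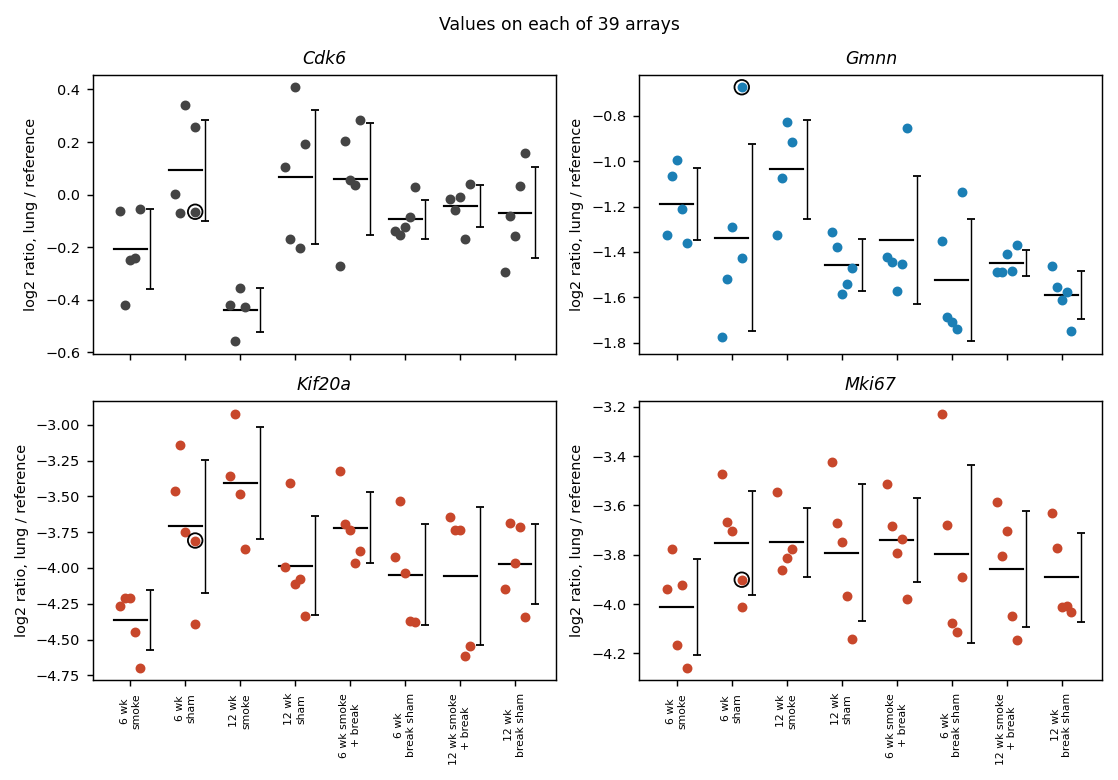
Log2 ratio of lung to reference (y axes) of Cdk6, Gmnn, Kif20a and Mki67 on each of 39 arrays by group (x axis), with the group mean as a line, the SD as a bar, points shifted sideways by label run and a ring around replicate 2 of 6 week sham. The 12 week smoke arrays of Cdk6 lie between −0.56 and −0.36, below all 12 week sham arrays, and Kif20a averages −4.37 in 6 week smoke and −3.41 in 12 week smoke.

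Once smoke had been withdrawn for 6 weeks no member differed by the test. After 6 weeks of smoke and the break 0 of 42 members passed against break sham, as did 0% of all probes, with 1 member at an unadjusted p under 0.05, Kif20a, against 4.32% of all probes. By sign 32 of 42 members were higher in 6 week smoke and 6 week break lungs, with medians of 0.06 for S phase and 0.16 for mitotic members, and no member was free of overlap (0.49% of all probes were). The mitotic mean was higher in 6 week smoke and 6 week break than in break sham in 5 of 5 runs, by 0.05 to 0.23. The 53 other probes below −3 had a median of 0.20 there, and 4 of them were below 0. Kif20a was −3.32, −3.97, −3.69, −3.73 and −3.88 in 6 week smoke and 6 week break lungs, against −3.92, −4.37, −3.53, −4.04 and −4.38 in break sham. Its log2 difference was 0.33 with an adjusted p of 0.999 in limma. Cdk6 had a log2 difference of 0.16 (95% interval −0.05 to 0.36).

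After 12 weeks of smoke and the break 0 of 42 members passed either, with 0% of all probes past the threshold. At an unadjusted p under 0.05 there were 4 of 42 members, Bub1, Mad2l1, Mybl2 and Cdc20, against 6.43% of all probes, and none was free of overlap (0.757% of all probes were). The members split evenly, 21 higher and 21 lower, with a median of −0.02 for S phase and −0.01 for mitotic members. The extremes came from single dim spots. Bub1, a kinase of the spindle checkpoint, had a log2 difference of 1.05 through replicate 1 of 12 week smoke-6 week break at 0.44, while its other 38 arrays lay between −4.58 and −2.98. Without that array the difference was 0.28. Mad2l1, another checkpoint protein, had −0.73 through replicate 2 of 12 week smoke-break sham at −0.07, and −0.15 without it. In both spots the Cy5 signal, 292 and 151, was below the array's threshold of 416 and 182. Cdk6 had a log2 difference of 0.03 (95% interval −0.18 to 0.23).

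**Figure D5:**
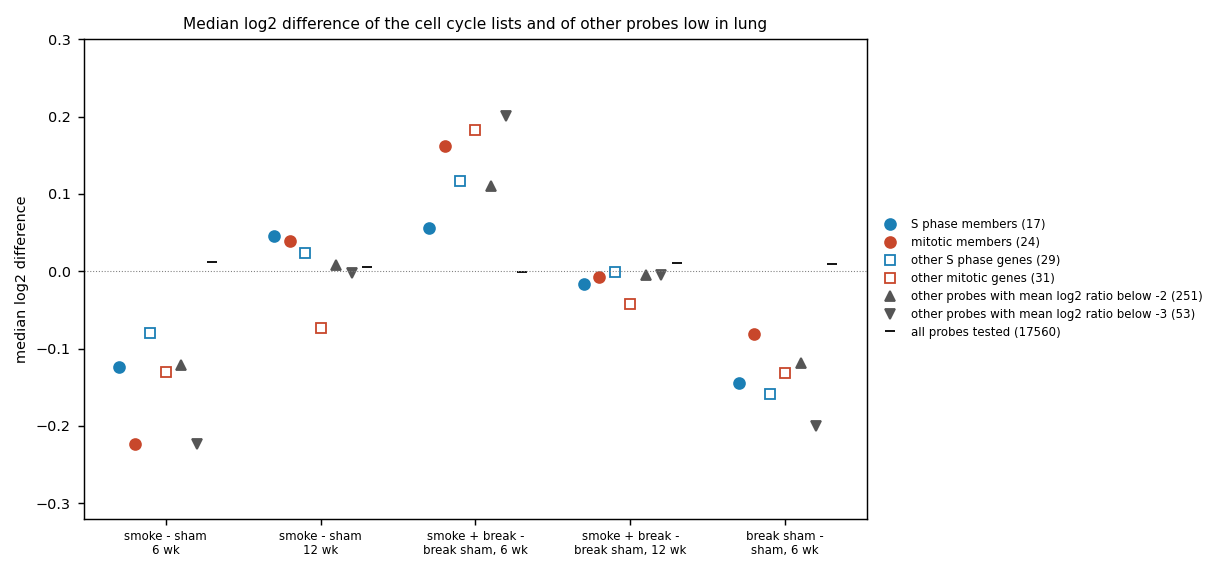
Median log2 difference (y axis) of the S phase and mitotic members, of other S phase and mitotic genes, of other probes with a mean log2 ratio below −2 or −3, and of all probes tested, in 5 comparisons (x axis). In the 3 comparisons of 6 week groups the cell cycle lists and the probes of low ratio lie on the same side of 0, at −0.22 for mitotic members and for the 53 probes below −3 in smoke minus sham.

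Shams were also compared among themselves, though not like with like. In the 6 week arm, break sham was taken 12 weeks from the start and sham 6 weeks from it. In the 12 week arm, these times were 18 and 12 weeks. Time and the break cannot be told apart here, and the differences are no measure of spread between like mice. Break sham of the 6 week arm against 6 week sham, which shares its sham arrays with the smoke comparison, had 33 of 42 members lower with a median of −0.14 for S phase and −0.08 for mitotic members. None passed, where 0.29% of all probes did. By sign, 47.8% of all probes were lower in break sham. Of the 53 other probes below −3, 46 were lower, with a median of −0.20. Of the 251 below −2, 76.9% were lower, with a median of −0.12. The part of the position on the ratio scale was not tested here either. Cdc6, the licensing factor, was −2.21, −2.22, −2.28, −2.43 and −2.27 in break sham, against −2.10, −1.78, −1.72, −1.52 and −1.12 in 6 week sham, a log2 difference of −0.62 with an adjusted p of 0.307, from a dim probe. In the 12 week arm 0 members passed (0.0228% of all probes) and the median was 0.02 over the 42. Over both arms 0 members passed, where 0.911% of all probes did. Sham mice at 12 weeks against 6 weeks had no call among members or probes (0%), with a median of −0.05.

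Genes of the same pathway outside the 44 mostly had the same sign at 6 weeks, as had other probes of low ratio. Of the 251 such probes below −2, 71.3% were lower in 6 week smoke with a median of −0.12, beside 47.2% of all probes. Of 29 other S phase genes tested (origin recognition, polymerases, clamp loaders), 21 were lower in 6 week smoke with a median of −0.08, and of 31 other mitotic genes 29 were lower with a median of −0.13, none of either past the test. At 12 weeks the medians were 0.02 and −0.07, also with no call. Cell cycle inhibitors and G1 regulators, 28 tested, had medians of 0.04 and −0.02 with no call. Among marker lists the macrophage genes were higher in smoke for 6 of 6 at both durations, and over both durations Chil3 at 1.52 and Marco at 0.75 passed. The mean level of the 6 was 1.81 to 2.79 in 6 week smoke and 1.19 to 1.85 in 6 week sham lungs, and 1.95 to 2.43 in 12 week smoke and 1.23 to 1.93 in 12 week sham lungs. The B cell genes had a median of −0.57 at 12 weeks with 5 of 6 below 0 and none past the test. Of these 6 genes, 2 exceeded the lung signal threshold on all arrays. The part of these lists in the members' values was not tested.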

How the data were processed

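RNA of 39 lungs was labelled with Cy5 and hybridized with Cy3-labelled reference RNA to 2-colour Agilent arrays of 22575 spots, in 1 dye orientation. The scanner files deposited by the authors hold spot and local background intensity for each channel, not normalized (ImaGene software). The authors also deposited log2 ratios after global LOWESS, which were used as an alternative (r of 0.975 to 0.996 per array with the ratios here). Medians were corrected with normexp (offset 50) and loess normalized within arrays with control spots at weight 0 (limma 3.58.1, R 4.3.3), and spots of a probe were averaged. Of 20868 probes, 18235 had 1 gene symbol in the platform annotation, and 17560 exceeded a threshold (mean plus 3 SD of the negative controls, trimmed by 5%) in at least 4 arrays of a group and were tested. The number of arrays limits the precision.

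The 8 groups and label run (5 runs in the sequence of exposure labels, which are not hybridization dates) were fitted together in limma, with Benjamini-Hochberg adjustment over all probes and a threshold of 0.05. A gene is represented by its brightest probe. The fit was tested on data simulated with independent normal noise for each probe, which does not cover run effects or variation shared within arrays. Alternatives changed the background correction, normalization, filter, block, samples, probe choice and threshold. The members and lists were chosen with earlier results of these data known. Values by array are given for members past the threshold, those at the ends of each phase in the smoke comparisons, and the usual markers of dividing cells; further genes named were chosen after their values were seen. Each array is 1 mouse by the labels.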

Additional observations from a re-analysis of the deposited data

Results flagged for a closer look

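In groups of 4 to 10 arrays, a value whose gap to its neighbours exceeds Dixon's 95% critical value was sought for the members whose values are given by array, for the S phase and mitotic means, and for Bub1 and Mad2l1, chosen after their values were seen; chance gives such a value in about 1 in 20 groups. Over all members 24 of 336 gene and group pairs had one (7.14%), on 17 arrays. The values below are log2 ratios of lung to reference.

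Bub1 was 0.44 in replicate 1 of 12 week smoke-6 week break, against −4.07 to −2.98 in the rest of its group. Mad2l1 was −0.065 in replicate 2 of 12 week smoke-break sham, against −2.86 to −2.52. Both channels of these spots were marked by the scanner software, as they were for Cenpa at −1.03 in replicate 1 of 12 week smoke-6 week break (others −3.23 to −2.61). Cenpa was also apart at −2.73 in replicate 5 of 6 week sham (others −3.38 to −3.21) and at −1.51 in replicate 5 of 12 week smoke-break sham (others −3.01 to −2.72), the last with a Cy5 signal of 618 over a threshold of 210.

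Top2a was −3.81 in replicate 2 of 12 week smoke (others −3.19 to −3.10), where its Cy5 signal of 210 was under the threshold of 226, and −3.10 in replicate 5 of 12 week sham (others −3.57 to −3.48). Gmnn was −0.86 in replicate 5 of 6 week smoke and 6 week break (others −1.57 to −1.42), with a Cy5 signal of 7331. Mcm2 was −2.04 in replicate 4 of 6 week smoke (others −2.83 to −2.65). Mcm6 was −2.23 in replicate 1 of 12 week smoke-break sham (others −2.67 to −2.56) and Pcna −0.69 in replicate 1 of 6 week smoke (others −1.56 to −1.33), both with the reference at the scanner limit of 65535.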

How the results depend on the processing

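No paired analysis was possible because the replicate numbers were given in accession order and pair no samples; arrays could be matched only by label run, which the fit holds as a block. Against 14 settings and 39 single arrays left out, no member passed in either comparison after the break or between shams. At 6 weeks the count of members was 1 (Kif20a) instead of 0 with marked spots left out, with array weights and at an adjusted p of 0.1. At 12 weeks it was 0 instead of 1 (Cdk6) with spot means, without the label-run block, with only the groups of the contrast and with the mean over all probes of a gene. The difference between durations had 1 member (Kif20a) instead of 0 without background correction, with signal in at least 20 arrays, with array weights and at an adjusted p of 0.1. The mean of both durations had 2 (Gmnn besides Cdk6) with array weights, and 0 with only the groups of the contrast and with the mean over probes. With 1 array left out these counts were 0 to 1 at 6 weeks, 0 to 1 at 12 weeks, 0 to 1 for the difference and 1 to 2 for the mean. A median counted as moved when it changed by more than its SD between replicates, 0.11 for S phase and 0.19 for mitotic members. Median centring moved the S phase median to −0.0053 at 6 weeks, −0.024 for break sham minus sham at 6 weeks and −0.0566 for the difference. Over the 14 settings the mitotic median ranged from −0.27 to −0.11 at 6 weeks and from 0.05 to 0.27 for the difference. Mcm6 at 12 weeks turned to 0.0523 with marked spots left out. Aurkb at 6 weeks turned to −0.13 with array weights and ranged from −0.17 (without replicate 4 of 6 week smoke) to 0.34 with 1 array left out. The cause was not tested in any of these. Aurkb exceeded the lung signal threshold on 14 of 39 arrays and Chek1 on 18, and the part of this in their values was not tested.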

Other observations

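Of the 28 cell cycle inhibitors and G1 regulators tested, 3 passed the limma test in some comparison once replicate 2 of 6 week sham was left out. None passed with all 39 arrays. For smoke minus sham over both durations, 1.62% of all probes passed without that array and 1.22% with it. For break sham minus sham over both arms, 56 of 17560 probes passed as higher and 52 as lower without it, and 0.911% passed with it. Ccnd1, the cyclin that pairs with Cdk4 and Cdk6, had a log2 difference of −0.29 over both durations of smoke minus sham without that array (adjusted p 0.0425) and −0.24 with it (adjusted p 0.201). E2f6, a repressor of the E2F family, had 0.31 (adjusted p 0.0417) and 0.26 (adjusted p 0.163). Cdkn1a, the inhibitor p21, had 0.51 in break sham minus sham over both arms (adjusted p 0.028) and 0.40 with that array (adjusted p 0.154). Among the B cell genes Blnk, a signalling adaptor, had −0.48 over both durations without it (adjusted p 0.0077) and −0.42 with it (adjusted p 0.0559).

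No T and NK cell, thymocyte, neutrophil, erythroid, endothelial or lung identity gene of the lists passed in any of the 10 comparisons with 39 arrays. The 6 neutrophil genes tested had a median log2 difference of 0.27 at 6 weeks, with 6 of 6 above 0, and of −0.12 at 12 weeks. Of these genes, 2 exceeded the lung signal threshold on all arrays. Their mean level was 1.074 to 2.135 in 6 week smoke and 0.692 to 1.403 in 6 week sham lungs, with overlap. Of 5 thymocyte genes tested, none exceeded the lung signal threshold on all arrays.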
